A study of Mus musculus with 12 samples.

Results

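Peritoneal macrophages given lipopolysaccharide (LPS, a cell wall component of Gram-negative bacteria) together with interferon gamma (IFNγ, a cytokine of T and NK cells) were compared with vehicle-treated macrophages over all genes. The members were chosen by their titles: 4 arrays named LPS_IFNg and 4 arrays named control, which are 8 of the 12 arrays of the series. The remaining arrays carry an additional compound and were not used. After removal of dim probes, 12995 genes were tested.

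LPS is detected by a receptor complex of TLR4 and MD-2 (encoded by Ly96), which signals through the adaptors MyD88 and TRIF to the NF-kB and AP-1 transcription factors and, through IRF3, to interferon beta. IFNγ binds a receptor of IFNGR1 and IFNGR2, whose JAK kinases activate STAT factors that bind a DNA element called GAS. Given together, the stimuli drive what is called classical activation, a state known in mouse macrophages for nitric oxide production, antigen presentation and inflammatory cytokines.

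All cells came from C57BL/6 mice with no genetic alteration in the labels. Per the labels, non-adherent cells were washed off 2 hours after plating, the rest stayed overnight without serum, and LPS at 100 ng/ml and IFNγ at 20 ng/ml were then given for 20 hours. The control group received vehicle for the same 20 hours. Control mice were labelled 8 weeks old, with 2 female and 2 male labels, and mice of the LPS_IFNg group 9 weeks old, all 4 labelled female. Nothing states how many animals gave cells to a sample, and p-values here reflect the spread of these samples alone, which may be technical. RNA of 200 ng per sample was labelled with the dye Cy3 and hybridised to 1-colour Agilent arrays.

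Several features of the arrays bear on what follows. The 4 control arrays shared one slide and scan and the 4 LPS_IFNg arrays another, so slide, scan and age cannot be told apart from treatment. Spike-in RNAs, added from a kit during labelling, were brighter on LPS_IFNg arrays by 2.07 on the log2 scale, with no overlap (exact two-sided permutation p = 0.0286, the smallest that 4 against 4 arrays allow). The 75th percentile of signal, to which each array was scaled, lay between 633 and 810 on control arrays and between 637 and 795 on LPS_IFNg arrays. The share of probes clearly above background ran from 49.7% to 50.8% on control arrays and from 45.7% to 48.0% on LPS_IFNg arrays.

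Sex-linked transcripts went against some labels. Xist, the RNA of the inactive X chromosome, lay between -0.01 and 0.44 on all control arrays, those labelled male included, and at 0.51, 0.35 and 0.51 on LPS_IFNg arrays 1, 2 and 4. It lay at -5.97 on LPS_IFNg array 3, where the Y-linked Ddx3y and Eif2s3y lay at 0.24 and 1.01, against -6.77 to -4.25 on the other 7 arrays. The Y-linked Kdm5d and Uty were not above background on any array. On LPS_IFNg array 3 they lay at -6.01 (Kdm5d) and at -5.76 and -5.79 (probes of Uty). Without LPS_IFNg array 3, 4124 genes were called up and 4396 down, against 4343 and 4645 with it. With only the arrays labelled female, 2 against 4, 4137 were called up and 4696 down. That choice follows the labels, so it keeps LPS_IFNg array 3 and drops control arrays 3 and 4, where Xist was present. It therefore cannot show what a difference in sex contributes.

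Macrophage markers were present in both groups, and so were some genes of the neutrophil list. The series text also names blood neutrophils, whereas the tissue label names peritoneal macrophages, so both lists were read. Adgre1 (F4/80) lay at 4.93, 4.75, 4.74 and 4.88 on control arrays and at 6.10, 6.23, 6.40 and 6.17 on LPS_IFNg arrays. The receptor Csf1r lay between 7.74 and 8.19 on control arrays and between 7.14 and 7.41 on LPS_IFNg arrays. Of 15 neutrophil genes 1 had no probe and 5 did not pass the filter on dim probes. S100a9 was above it only on control arrays, at -3.89 to -2.92, but S100a8 lay between 2.90 and 3.73 on control arrays and between 3.78 and 4.19 on LPS_IFNg arrays. Csf3r, the receptor for G-CSF, lay between 6.27 and 6.66 on all 8 arrays. In a bulk sample, fewer cells of a type and less RNA per cell cannot be told apart.

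Throughout, a level is the log2 processed signal minus the 75th percentile of its array, and a change is the mean level with LPS_IFNg minus that of control, with its standard error (n = 4 arrays per group). A gene was called at an adjusted p under 0.05 in limma's test with Benjamini-Hochberg adjustment over all genes. By this rule 8988 genes, or 69.2% of those tested, were called. They split into 4343 that rose (33.4%) and 4645 that fell (35.7%). Groups were fully separated for 8410 genes (64.7%). The shares of 33.4% and 35.7% are the background for each count of list members. The median change over all genes was -0.04, and the median standard error was 0.106.

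Rises outnumbered falls among the largest changes. By at least 2-fold, 1834 genes rose (14.1%) and 1586 fell (12.2%). By at least 8-fold 437 rose and 151 fell, and by at least 64-fold 80 rose and 8 fell. By at least 256-fold 31 rose and 0 fell. These counts use fitted changes and include genes dim in 1 group, for which only a bound holds. Among genes measured on all 8 arrays without overlap, the largest rise was 2833-fold (Nos2) and the largest fall 195-fold (Mamdc2). Another 4007 genes were not called, and 5568 were called at under 2-fold.

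**Figure D1:**
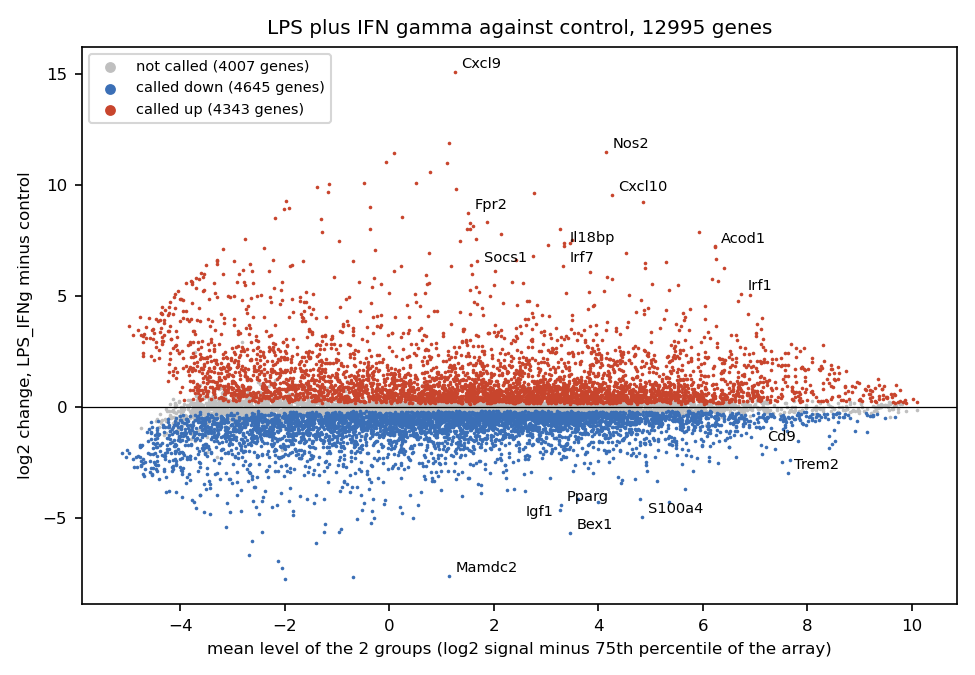
Each point is 1 of the 12995 genes tested, with the mean level of the groups on the horizontal axis (log2 signal minus the array's 75th percentile) and the log2 change on the vertical axis. Red points were called up (4343), blue points called down (4645) and grey points not called (4007), and the rises reach further from 0 than the falls.

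The genes that rose most encode effectors, chemoattractants and enzymes. Among genes measured on all 8 arrays without overlap, the 15 largest rises included Nos2, Gbp5, Cxcl10, Tgtp2, Fpr2, Il1b, Ifit2, Gbp6, Hcar2, Inhba, Tnfsf15, Ccl5, Calhm6 and Upp1. Their changes ran from 11.47 for Nos2 (inducible nitric oxide synthase) to 7.56 for Upp1 (uridine phosphorylase). Hcar2, a receptor for niacin and beta-hydroxybutyrate, lay at -2.34, -2.47, -2.85 and -2.25 on control arrays 1 to 4 and at 5.99, 5.61, 5.56 and 5.55 on LPS_IFNg arrays, a change of 8.16 ± 0.15 (limma adjusted p = 1.3e-09).

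The largest falls were of other kinds of gene. They were Mamdc2, Bex1, Tmem273, 0610040J01Rik, Gask1b, Tnni2, S100a4, Hnmt, Lrrc14b, Igf1, Sort1, Pparg, Clec10a, Cbr2 and Arhgap15, with changes from -7.61 to -4.32. Sort1 changed by -4.48 on its brightest probe and by -2.69 and -0.35 on its other kept probes, so the size of its fall depends on the probe. Bex1, a small X-linked protein, lay at 6.97, 6.67, 5.51 and 6.02 on control arrays and at 1.03, 0.68, -0.15 and 0.99 on LPS_IFNg arrays, and its other kept probe changed by -5.73. S100a4, a calcium-binding protein, lay between 6.83 and 7.55 on control arrays and at 2.37 ± 0.49 (SD, n = 4) on LPS_IFNg arrays. Bex1 and S100a4 fell by 5.65 ± 0.36 and 4.93 ± 0.26 on the log2 scale, and absence of overlap was a condition of this listing. Hnmt, which degrades histamine, varied more with LPS_IFNg (-0.98, -2.97, -2.54 and -2.08) than in control (2.42 to 2.84).

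Some genes were well above background in 1 group only. With no probe above background on any control array, 180 genes were above it on all LPS_IFNg arrays, and 342 genes showed the reverse. The lowest signal called well above background was itself higher on LPS_IFNg arrays (-4.02 to -3.82) than on control arrays (-4.65 to -4.45). For such genes a bound is given, the mean of the bright group over a ceiling for the dim one. On each dim array the ceiling is the lowest signal called well above background, or the gene's own signal where that is higher. Among the 180 rises the bound was at least 2-fold for 178 and at least 8-fold for 69. Among the falls 318 of the 342 had a bound above 1, which was at least 2-fold for 116 and at least 8-fold for 21. The largest bounds for rises were those of Cxcl9 (at least 10540-fold), Ptgs2 (at least 3154-fold), Gm4951, Gbp4, Il6, Ifi44, Clic5, Ccl12, Lhx2 and Ubd (at least 284-fold). Clic5, an intracellular chloride channel protein, rose at least 419-fold, and Lhx2, a LIM homeobox factor, at least 303-fold.

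The bounds for falls to background were smaller than those for rises, but a smaller bound is not a smaller fall. Cmbl fell at least 121-fold, Rgs18, a regulator of G protein signalling, at least 56.3-fold, and Cd28, best known as a T cell costimulatory receptor, at least 48.5-fold. Cd28 lay at 1.65, 1.65, 1.80 and 1.51 on control arrays and was at background on all 4 LPS_IFNg arrays. The other 7 were Tceal7, Pcp4l1, Gm5086, Smpd3, Npas4, Abca9 and Rasgrp3, with bounds between 45.5-fold and 14.5-fold. Pcp4l1 rests on 3 control arrays, since its spot on control array 2 carried an outlier mark.

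Promoter windows are shown for members of groups that rose, because the stimuli are known to act through short DNA elements in them. The windows are RefSeq's for GRCm38.p6, from 250 bases before to 50 bases after a transcript start, and they were taken for the members with the largest rise that held a match among IRF factors, chemokines and ubiquitin-like modifiers. Capitals mark a match to GAS (TTCNNNGAA, bound by STAT dimers), ISRE (GAAANNGAAA, bound by IRF and STAT complexes) or the NF-kB motif, searched on both strands, and matches may overlap.
Irf1, chr11:53769764-53770063, plus strand: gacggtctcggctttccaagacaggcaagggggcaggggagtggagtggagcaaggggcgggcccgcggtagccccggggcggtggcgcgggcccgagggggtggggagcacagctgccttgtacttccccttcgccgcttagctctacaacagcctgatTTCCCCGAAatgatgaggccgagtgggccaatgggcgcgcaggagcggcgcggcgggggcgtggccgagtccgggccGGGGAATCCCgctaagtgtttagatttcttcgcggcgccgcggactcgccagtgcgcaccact
Irf8, chr8:120736108-120736407, plus strand: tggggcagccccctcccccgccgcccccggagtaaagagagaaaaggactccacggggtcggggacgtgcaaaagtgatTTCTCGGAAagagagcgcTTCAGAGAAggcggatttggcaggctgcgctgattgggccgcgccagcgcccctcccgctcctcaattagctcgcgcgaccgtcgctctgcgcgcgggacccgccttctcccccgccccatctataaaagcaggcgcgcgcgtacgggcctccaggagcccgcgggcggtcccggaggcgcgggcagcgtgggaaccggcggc
Cxcl10, chr5:92348840-92349139, minus strand: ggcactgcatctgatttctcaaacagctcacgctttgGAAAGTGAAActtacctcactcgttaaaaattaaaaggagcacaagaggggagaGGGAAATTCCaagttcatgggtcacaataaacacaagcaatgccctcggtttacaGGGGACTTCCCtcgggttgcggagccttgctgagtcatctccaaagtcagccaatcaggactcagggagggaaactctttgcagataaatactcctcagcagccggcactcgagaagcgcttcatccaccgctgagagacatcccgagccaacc
Cxcl3, chr5:90785851-90786150, plus strand: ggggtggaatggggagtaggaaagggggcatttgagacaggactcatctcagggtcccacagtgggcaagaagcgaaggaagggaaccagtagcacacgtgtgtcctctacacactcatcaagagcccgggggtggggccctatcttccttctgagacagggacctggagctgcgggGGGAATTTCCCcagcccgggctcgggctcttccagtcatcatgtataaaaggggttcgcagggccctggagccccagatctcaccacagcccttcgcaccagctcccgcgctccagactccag
Ubd, chr17:37193642-37193941, plus strand: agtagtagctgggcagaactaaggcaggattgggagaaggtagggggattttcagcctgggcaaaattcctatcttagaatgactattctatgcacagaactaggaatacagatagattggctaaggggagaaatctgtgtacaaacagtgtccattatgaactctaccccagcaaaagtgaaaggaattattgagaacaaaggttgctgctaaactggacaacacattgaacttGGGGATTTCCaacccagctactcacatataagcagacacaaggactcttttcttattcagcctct
Isg15, chr4:156200769-156201068, minus strand: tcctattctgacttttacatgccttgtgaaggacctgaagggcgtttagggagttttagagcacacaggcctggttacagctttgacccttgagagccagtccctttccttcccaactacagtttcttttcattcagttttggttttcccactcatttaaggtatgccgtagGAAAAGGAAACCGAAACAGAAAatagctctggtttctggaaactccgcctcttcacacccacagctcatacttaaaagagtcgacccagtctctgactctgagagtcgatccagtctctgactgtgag

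The windows differed in what they held. Irf1 held 1 GAS match, starting 90 bases before the start, and 1 NF-kB match starting 13 bases before it. Irf8 held 2 GAS matches and no other. Cxcl10 held 1 ISRE match and 3 NF-kB matches, 2 of them overlapping, whereas Cxcl3 held 2 overlapping NF-kB matches alone. Isg15 held 3 overlapping ISRE matches between 78 and 57 bases before the start. Windows of Irf7, Cxcl9 and Ccl12 held none of the motifs, which says only that these letters are not in these windows. Batf2, Ccl5, Ccl7 and Ccl2 had no window among those used and were passed over without a search.

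Shares of windows with a match differed most for the ISRE. Of all 32851 windows 3.44% held an ISRE, 8.30% a GAS and 8.46% an NF-kB match. Among 13178 windows of genes tested the shares were 3.25%, 7.19% and 10.3%. Among 385 windows of genes called up at 8-fold or more, the shares were 15.3%, 11.4% and 13%. Among 4043 windows of genes not called they were 2.72%, 6.75% and 9.65%, and among 1652 windows of genes called down at 2-fold or more they were 2.72%, 6.11% and 9.87%. An NF-kB match was in 12 of 18 windows of 13 NF-kB genes (66.7%), and an ISRE in 0 of them. Nucleic acid sensors and antiviral effectors held an ISRE in 12 of 33 windows of 26 genes (36.4%) and an NF-kB match in 24.2%. Chemokine windows held an NF-kB match in 35.7% and an ISRE in 14.3%. For ubiquitin-like modifiers and proteasome genes these shares were 5.88% and 11.8%. A gene may have several windows. These shares are descriptions, and a match is not a binding site.

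The LPS receptor itself was lower and several adaptors were higher. Of 22 receptors, adaptors and kinases of the LPS pathway 11 rose and 6 fell, with a median change of 0.30. Tlr4 lay at 2.53, 2.62, 2.47 and 2.46 on control arrays and at 1.88, 1.83, 1.62 and 1.97 on LPS_IFNg arrays. That is a fall of 1.62-fold without overlap (change -0.70 ± 0.09, limma adjusted p = 0.000123). Its co-receptor Ly96 fell by 0.59 ± 0.16 on the log2 scale, with overlapping arrays, and the kinase Irak1 fell by 0.91 ± 0.08. Lbp, the plasma protein that carries LPS, fell 2.79-fold, above background on 3 LPS_IFNg arrays.

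Downstream of the receptor, Myd88, the main adaptor, changed by 1.39 ± 0.08 and Traf3, an adaptor on the way to interferon genes, by 1.42 ± 0.13. The inhibitory kinase Irak3, known from LPS tolerance, showed the largest rise of the list. It lay at 1.69, 1.56, 1.75 and 1.76 on control arrays and at 3.46, 3.70, 3.79 and 3.59 on LPS_IFNg arrays, or 3.86-fold higher. The co-receptor Cd14 was not called (0.30 ± 0.12, limma adjusted p = 0.052), although its arrays did not overlap.

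The other Toll-like receptors moved in both directions. Of 9 tested members of that list 5 rose and 3 fell. One of the falls, that of the chaperone Unc93b1, was a call lost without LPS_IFNg array 1, 2 or 4 or without any 1 control array (-0.19 to -0.16). Tlr2, the receptor for bacterial lipoproteins, lay at 3.04, 3.24, 3.57 and 3.48 on control arrays and at 5.62, 5.64, 5.45 and 5.57 on LPS_IFNg arrays (4.72-fold higher). Tlr13, which detects bacterial ribosomal RNA, lay at 6.54, 6.47, 6.53 and 6.56 on control arrays and at 4.53, 4.67, 4.69 and 4.78 on LPS_IFNg arrays (3.62-fold lower). Both differences were many times the spread within a group. Tlr8 was above background only on control arrays and was at least 1.77-fold lower.

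The interferon receptor chain Ifngr1 fell while Jak2, Stat2 and Stat3 rose. Of 14 genes of the list 8 rose, 3 fell and 3 were not called. Ifngr1, which binds IFNγ, lay at 4.76, 4.84, 4.74 and 4.78 on control arrays and at 3.38, 3.15, 3.13 and 3.28 on LPS_IFNg arrays, a 2.91-fold fall (change -1.54 ± 0.08, limma adjusted p = 2.91e-07). Its partner Ifngr2 changed by -0.21 ± 0.06, and Stat6, which acts downstream of interleukin-4, by -0.27 ± 0.06 on its brightest probe and by -0.57 to 0.04 on the others. Jak2 lay between 2.51 and 2.70 on control arrays and between 5.02 and 5.29 on LPS_IFNg arrays, 5.66-fold higher. Stat2, a factor of type I interferon signalling, rose 11.2-fold and Stat3 3.45-fold. Ifnar1, Stat5a and Stat5b were not called.

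Irf7, Batf2 and Irf1 showed the largest rises among IRF and BATF factors. Of 12 members 8 rose, 5 of them by at least 2-fold, 2 fell and 2 were not called, and the median change was 0.58. Irf7, which amplifies interferon production, lay at -0.06, 0.24, 0.11 and 0.29 on control arrays and at 6.34, 6.52, 6.71 and 6.44 on LPS_IFNg arrays (81.9-fold). Batf2 rose 58.1-fold, Irf1, an early interferon response factor, 34.0-fold, and Irf8, a factor of myeloid cells, 9.26-fold. None of these overlapped between the groups. Irf3, which is activated by phosphorylation rather than by new RNA, changed by -0.40 ± 0.07, and Irf4 by -0.64 ± 0.19 with overlap.

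NF-kB subunits and their inhibitors rose together. Of 16 members 14 rose, against 33.4% of all genes, no member had a lower mean with LPS_IFNg, and the median change was 1.75. Each of the subunits Rela (2.57-fold), Relb (1.89-fold), Rel, Nfkb1 and Nfkb2 was higher. The 5 largest rises were those of inhibitors and IκB-like proteins. Nfkbia (IκBα) rose 4.54-fold, the deubiquitinase Tnfaip3 (A20) 6.74-fold, Nfkbie 7.58-fold and the atypical inhibitor Nfkbiz 8.69-fold. Tnfaip3 lay at 3.26, 3.31, 3.21 and 3.50 on control arrays and at 6.09, 6.09, 6.12 and 6.00 on LPS_IFNg arrays. Cyld and Nfkbid were not called.

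Among 24 AP-1, CREB and early response factors 13 rose and 9 fell. Within the AP-1 family, Fosl1 (18.2-fold, above background on 3 control arrays) and Junb rose, while Fos and Jun changed by -1.84 ± 0.13 and -1.02 ± 0.08. The hypoxia-inducible factors parted as well. Hif1a, an inducer of glycolytic genes, lay between 2.29 and 2.50 on control arrays and between 4.75 and 4.97 on LPS_IFNg arrays (5.49-fold higher). Epas1 (HIF-2α) changed by -4.11 ± 0.14 on its brightest probe and by -2.42 and 0.00 on its other kept probes, so its fall depends on the probe. The small Maf factor Maff rose by 3.69 on the log2 scale.

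Suppressors of the same pathways were among the larger rises. Of 26 feedback suppressors 18 rose and 4 fell, with a median change of 1.16. Socs1, an inhibitor of JAK kinases, lay at -0.69, -0.54, -0.71 and -0.69 on control arrays and at 5.99, 6.20, 6.37 and 6.08 on LPS_IFNg arrays (113-fold). Cish rose 137-fold and Socs3 53.8-fold. Il18bp, the secreted protein that neutralises IL-18, rose 154-fold, from levels of -0.52 to -0.09 to levels of 6.86 to 7.02. Usp18, which blocks type I interferon receptor signalling, rose 37.2-fold. The phosphatase Dusp2 and the nuclear receptor Nr4a1 fell, by 1.29 ± 0.09 and 1.06 ± 0.09 on the log2 scale.

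**Figure D2:**
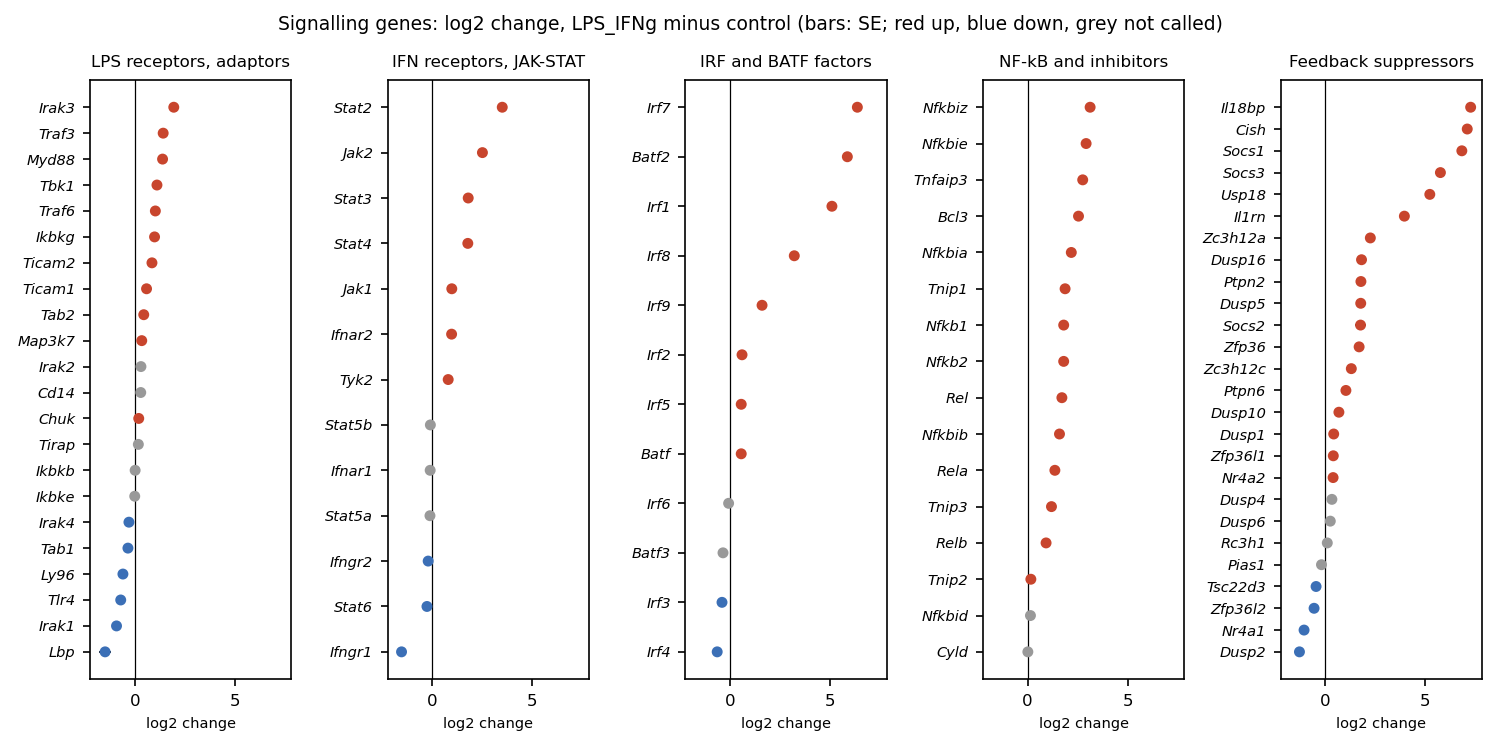
Points give the log2 change (LPS_IFNg minus control) of tested members of 5 lists, with bars for the standard error and n = 4 arrays per group; red was called up, blue called down, grey not called. Receptor genes Tlr4 and Ifngr1 lie left of 0, all called NF-kB genes lie right of it, and the suppressors Il18bp, Cish and Socs1 lie near 7.

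Cytokine genes rose in most cases. Of 27 tested members 22 rose, each by at least 2-fold in the fit, and 3 fell, with a median change of 3.46, or 3.39 with bounds for genes dim in control. Inhba, the subunit of activin A, lay at -0.99, -1.01, -0.33 and -0.67 on control arrays and at 7.39, 7.34, 7.20 and 7.20 on LPS_IFNg arrays (263-fold). Tnfsf15 (TL1A) rose 256-fold. Il12a, a subunit of IL-12, was at least 24.0-fold higher, Csf3 (G-CSF) at least 21.1-fold and Ifnb1 at least 6.67-fold, all dim in control. Among the 19 cytokine genes measured on all 8 arrays, 14 rose and 3 fell.

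The cytokines that fell were growth and matrix factors. Igf1 lay at 5.62, 5.75, 5.73 and 5.23 on control arrays and at 1.08, 0.73, 1.09 and 0.89 on LPS_IFNg arrays, 24.8-fold lower, and its other kept probes changed by -8.19 to -3.08. Spp1 (osteopontin) fell 3.31-fold and Pdgfb, a platelet-derived growth factor, 1.25-fold. Il18 and Tgfb1 were not called. Tgfb1 lay between 3.41 and 4.01 on control arrays and between 3.64 and 3.85 on LPS_IFNg arrays.

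Chemokines separated by gene. Of 20 tested members 14 rose and 4 fell. The filter also admits genes bright in 1 group only, and among the 16 chemokines measured on all 8 arrays 10 rose and 4 fell. Ccl5, which attracts T cells and monocytes, lay at 1.42, 2.13, 1.82 and 2.56 on control arrays and at 9.97, 9.76, 9.90 and 9.83 on LPS_IFNg arrays (236-fold). Cxcl10, a ligand of CXCR3, rose 743-fold, Ccl7 170-fold and Cxcl3 at least 68.5-fold. In contrast, Ccl9 lay at 6.68, 6.25, 5.72 and 5.89 on control arrays and at 3.12, 2.31, 2.26 and 3.26 on LPS_IFNg arrays (10.5-fold lower). Ccl6 was 7.26-fold lower, and Cxcl14 also fell. Pf4 fell with all arrays (-0.66), a call lost without LPS_IFNg array 2 or 3 or control array 2 (-0.58 to -0.63).

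Receptors for chemoattractants were divided about equally. Of 17 members 7 rose and 8 fell, against 33.4% and 35.7% of all genes, which were also divided about equally. Among the 12 measured on all 8 arrays 6 rose and 4 fell. Fpr2, a receptor for formylated bacterial peptides, lay at -3.26, -2.80, -2.82 and -2.57 on control arrays and at 5.61, 6.06, 6.08 and 5.73 on LPS_IFNg arrays (425-fold), and Fpr1 rose 17.7-fold. Ccr7, which guides cells to lymph nodes, rose 47.0-fold. S1pr1, the sphingosine-1-phosphate receptor, was 18.5-fold lower and above background on 1 LPS_IFNg array. Cxcr4 was 5.87-fold and the complement receptor C5ar1 4.11-fold lower. Ccr2 and Cxcr3 were above background on control arrays only, with falls of at least 1.88-fold and 4.86-fold.

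Nucleic acid sensors and antiviral effectors rose almost throughout. Of 32 members 30 rose, 29 of them by at least 2-fold, and 2 fell, and the median change was 3.20. Rsad2 (viperin) lay at 1.52, 1.71, 1.67 and 1.70 on control arrays and at 7.89, 8.19, 8.41 and 8.09 on LPS_IFNg arrays (90.3-fold). The 2'-5' oligoadenylate synthetase-like gene Oasl1 rose 51.1-fold and Slfn1 177-fold, the latter above background on 1 control array. Mavs, the adaptor of RIG-I, was among the members that fell, by 0.50 ± 0.08 on the log2 scale.

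All 17 ubiquitin-like modifiers and proteasome genes of the list rose. Isg15, a ubiquitin-like protein induced by interferon, lay at 3.44, 3.59, 3.21 and 2.90 on control arrays and at 9.66, 9.42, 9.56 and 9.52 on LPS_IFNg arrays (76.4-fold). Ubd (FAT10) was at least 284-fold higher. Psmb9, a catalytic subunit of the immunoproteasome, was 4.92-fold higher, measured on 3 LPS_IFNg arrays because 1 spot carried an outlier mark. The constitutive subunit Psmb5 that immunoproteasome subunits can replace rose 1.68-fold.

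Costimulatory and checkpoint molecules rose in 18 of 24 tested members and fell in 4. Cd86 lay at 0.84, 1.08, 0.81 and 1.28 on control arrays and at 5.14, 5.01, 5.30 and 5.06 on LPS_IFNg arrays (17.4-fold). Its relative Cd80, which binds the same T cell receptors, changed by -1.07 ± 0.14 on 1 probe and by 0.47 on another, so its direction is uncertain. Cd274 (PD-L1) rose 23.6-fold, whereas the checkpoint protein Vsir (VISTA) fell 5.33-fold. Vsir lay between 5.06 and 5.33 on control arrays and between 2.64 and 3.09 on LPS_IFNg arrays. Cd69 rose 70.0-fold.

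Genes of inflammasomes and cell death rose in 22 of 32 tested members and fell in 2. Casp4 (caspase-11), the intracellular LPS sensor, lay at 4.33, 4.54, 4.41 and 4.48 on control arrays and at 7.56, 7.62, 7.66 and 7.59 on LPS_IFNg arrays (9.01-fold). Nlrp3 rose 10.9-fold, above background on 2 control arrays. In the necroptosis pathway, Zbp1 rose 33.0-fold and Mlkl 11.8-fold, and the pore-forming gasdermin Gsdme fell 3.93-fold. Nlrp1b was not called with all arrays (-2.22 ± 1.03, limma adjusted p = 0.0851). It lay at -5.44, -5.82 and -5.62 on LPS_IFNg arrays 1 to 3 and at -0.74 on array 4, and without that array it was called with a change of -3.44 (adjusted p = 7.33e-07).

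**Figure D3:**
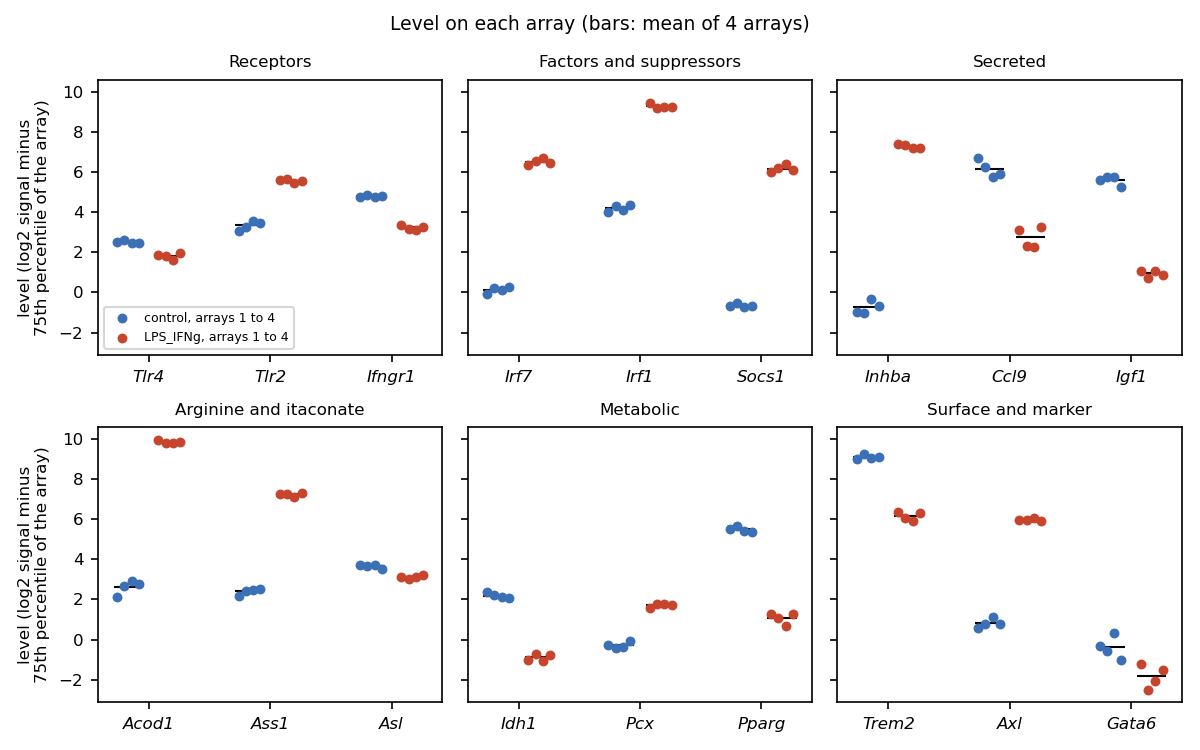
Points give the level of 18 genes on each of the 4 control arrays (blue) and 4 LPS_IFNg arrays (red), on a log2 scale relative to the array's 75th percentile, with a bar at the mean. Irf7, Socs1, Inhba and Acod1 lie more than 6 log2 units higher with LPS_IFNg, and Igf1, Pparg and Trem2 lie lower on every LPS_IFNg array.

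The arginine and nitric oxide genes rose at some steps and fell at others. Of 16 genes for nitric oxide, arginine, itaconate and prostaglandins 10 rose and 6 fell. The arginine importer Slc7a2 rose 61.6-fold, and Ass1, which rebuilds arginine from citrulline together with Asl, rose 28.7-fold. Asl itself lay at 3.73, 3.67, 3.70 and 3.50 on control arrays and at 3.14, 3.03, 3.11 and 3.23 on LPS_IFNg arrays, and fell 1.43-fold. Acod1, which makes itaconate, lay at 2.13, 2.68, 2.93 and 2.75 on control arrays and at 9.95, 9.77, 9.80 and 9.85 on LPS_IFNg arrays (149-fold).

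Tetrahydrobiopterin is a cofactor of nitric oxide synthase. Gch1, the enzyme of its initial step, rose 6.52-fold, whereas Pts and Spr, which complete its synthesis, and Qdpr, which recycles it, fell by 1.08 ± 0.11, 0.41 ± 0.12 and 1.20 ± 0.11 on the log2 scale. Qdpr lay between 5.16 and 5.55 on control arrays and between 4.03 and 4.30 on LPS_IFNg arrays. The arginases differed in certainty. Arg2 rose 5.46-fold without overlap, while Arg1 changed by 0.95 ± 0.35 with overlap (limma adjusted p = 0.039), and its call was lost without LPS_IFNg array 1 or 3 or without control array 2, 3 or 4 (changes of 0.66 to 0.92). Ptges, the prostaglandin E synthase, changed by 0.62 on its brightest probe and by 5.21 on another.

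Tricarboxylic acid (TCA) cycle genes showed little shift as a list. Of 25 members 7 rose and 10 fell, and the median change was 0.06, or -0.15 under quantile scaling. By at least 2-fold 2 rose and 3 fell, near the shares of all genes (14.1% and 12.2%). Idh1, the cytosolic isocitrate dehydrogenase, lay at 2.38, 2.23, 2.11 and 2.05 on control arrays and at -0.99, -0.72, -1.06 and -0.76 on LPS_IFNg arrays (8.43-fold lower). Suclg2, the GTP-forming subunit of succinyl-CoA synthetase, was 6.19-fold lower and Idh2 2.36-fold lower. Sucla2, the ATP-forming counterpart of Suclg2, and citrate synthase (Cs) were not called, at 0.21 ± 0.09 and 0.12 ± 0.08.

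Pcx, pyruvate carboxylase, was the largest rise of that list. It lay at -0.27, -0.40, -0.35 and -0.07 on control arrays and at 1.59, 1.80, 1.79 and 1.74 on LPS_IFNg arrays, 4.01-fold higher. Ogdh, of the 2-oxoglutarate dehydrogenase complex, changed by 1.13 ± 0.08 on its brightest probe and by -0.83 and -0.71 on the others, and the mean of its probes changed by -0.14, so no direction is given. Fh1 (fumarase) fell 1.44-fold.

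Fatty acid oxidation had the largest share of falls among the 31 lists by function. Of 23 members 16 fell and 2 rose, against 35.7% and 33.4% of all genes, and the median change was -0.39. Pparg, a nuclear receptor for fatty acids, lay at 5.52, 5.65, 5.42 and 5.37 on control arrays and at 1.28, 1.09, 0.66 and 1.26 on LPS_IFNg arrays (21.4-fold lower). The thiolase Acaa2 was 4.47-fold lower and Etfb, which passes electrons on to the respiratory chain, 3.21-fold lower. Cpt1a, which admits fatty acids to mitochondria, changed by only -0.40 ± 0.11, with overlap. Acadvl and Ppargc1b rose, and Acadvl was not called under quantile scaling (0.06).

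Genes of oxidative phosphorylation changed little. Of 37 subunits 11 rose and 5 fell in this scaling, but 6 rose and 16 fell under quantile scaling, so the list has no settled direction. The largest members were Cycs (cytochrome c) at 1.05 ± 0.11 and Ndufa4 at -0.77 ± 0.13. Nutrient transporters rose in 18 of 26 tested members and fell in 3. The glucose transporter Slc2a6 rose 9.38-fold and Slc2a1 5.14-fold, whereas Slc2a3 fell 2.50-fold. Slc2a6 lay at 4.93 ± 0.09 (SD, n = 4) on control arrays and between 8.07 and 8.27 on LPS_IFNg arrays.

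**Figure D4:**
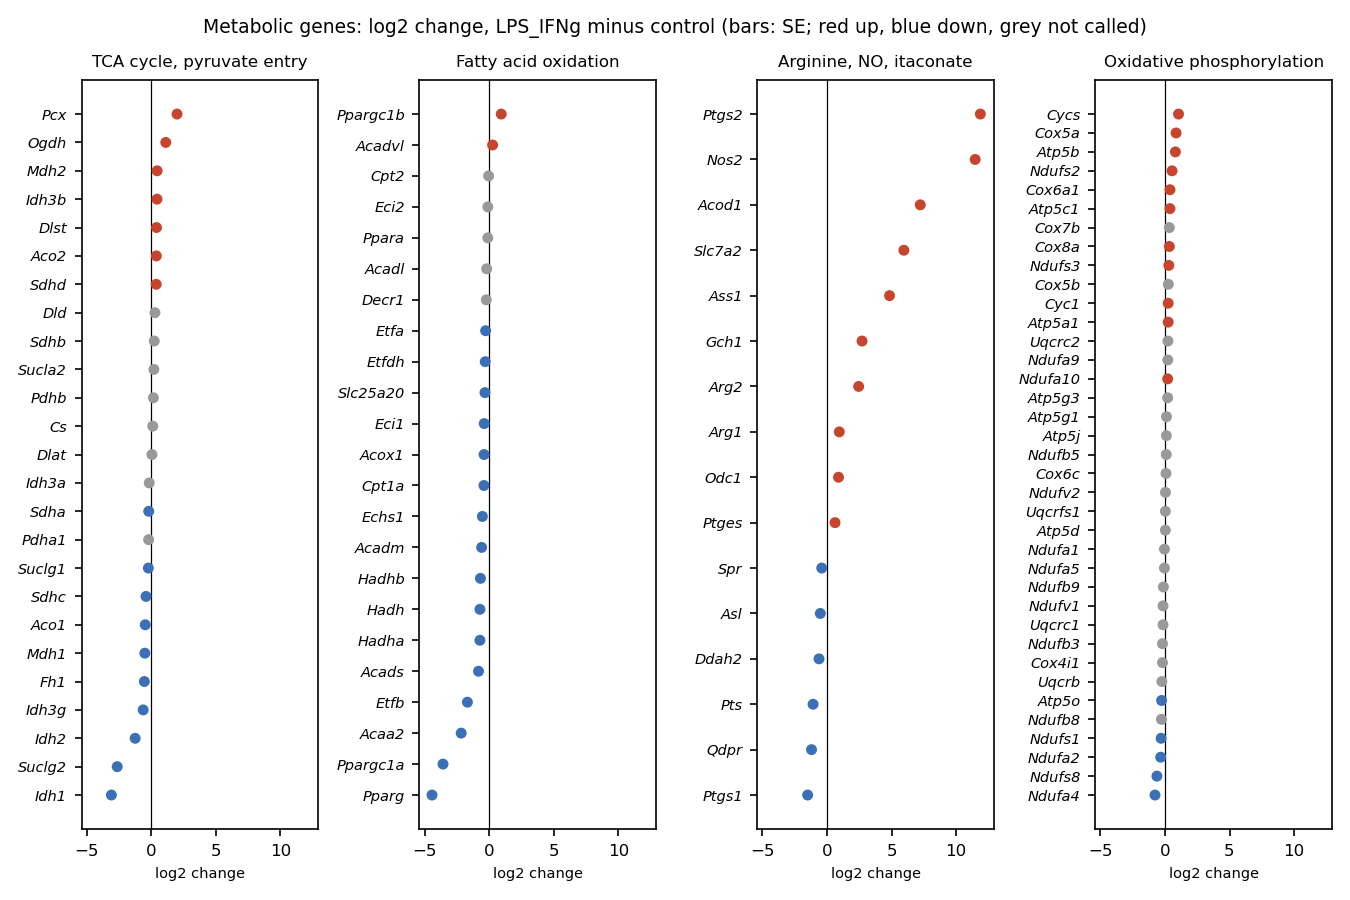
Points give the log2 change (LPS_IFNg minus control) of every tested member of 4 metabolic lists, with bars for the standard error and n = 4 arrays per group; red was called up, blue called down, grey not called. Fatty acid oxidation lies mostly left of 0, with Pparg at -4.42, and subunits of oxidative phosphorylation lie between -0.77 and 1.05.

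Genes that mark resident peritoneal macrophages fell more often than they rose. Of 26 tested members 14 fell and 6 rose, against 35.7% and 33.4% of all genes, with a median change of -0.87. Vsig4, a complement receptor of resident macrophages, lay at 3.05, 2.01, 2.48 and 2.65 on control arrays and at -0.41, -0.30, 0.11 and -0.64 on LPS_IFNg arrays (7.24-fold lower). Gata6, the factor that defines these cells, lay at -0.29, -0.55, 0.35 and -1.03 on control arrays and at -1.19, -2.50, -2.04 and -1.50 on LPS_IFNg arrays, a 2.69-fold fall. The coagulation factor gene F5 fell 11.9-fold. Timd4, a receptor for dying cells that resident macrophages carry, rose 4.89-fold, and Serpinb2 70.3-fold. F10 changed by 2.84 on its brightest probe and by 0.06 on another.

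Scavenger, lectin and phagocytic receptors fell in 15 of 27 tested members and rose in 11. Trem2, a lipid receptor, lay at 9.00, 9.26, 9.04 and 9.10 on control arrays and at 6.35, 6.04, 5.91 and 6.32 on LPS_IFNg arrays (7.71-fold lower), and Cd36 was 9.86-fold lower. The TAM receptors, which bind dying cells, all rose. Axl lay between 0.57 and 1.15 on control arrays and between 5.93 and 6.05 on LPS_IFNg arrays (35.3-fold), Mertk rose 5.61-fold and Tyro3 4.92-fold. Gas6, their bridging ligand, fell 6.10-fold. Of the neighbouring C-type lectins, Clec4e (Mincle) rose 16.1-fold and Clec4d fell 1.40-fold.

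Complement genes moved in both directions. Of 22 genes for complement and Fc receptors 10 rose and 8 fell, near the shares of all genes (33.4% and 35.7%). Cfb (factor B) lay at 1.92, 2.20, 2.18 and 1.83 on control arrays and at 8.65, 8.47, 8.59 and 8.51 on LPS_IFNg arrays (92.1-fold). C3 rose 27.1-fold, C1ra 27.6-fold and the C1 inhibitor Serping1 24.1-fold. Itgam, the α chain of complement receptor CR3, fell 3.23-fold. Fcgr4, an activating IgG receptor, rose 4.01-fold.

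Matrix, protease and coagulation genes rose in 18 of 27 tested members and fell in 8. Thbd (thrombomodulin), which restrains clotting, lay at 2.48, 2.50, 2.61 and 2.49 on control arrays and at -1.53, -1.20, -1.34 and -1.15 on LPS_IFNg arrays (14.2-fold lower). Timp1 rose 68.3-fold, and the elastase Mmp12 fell 9.52-fold. Among 24 antimicrobial and metal genes 16 rose and 4 fell. The metallothionein Mt2 rose 32.7-fold and the transferrin receptor Tfrc fell 4.58-fold. The neutrophil granule gene Ltf was above background only on control arrays and was at least 7.50-fold lower.

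Markers of other cells moved beside these lists. Of 11 mesothelial and fibroblast markers 3 rose and 6 fell, against 33.4% and 35.7% of all genes. Dcn (decorin) lay at 4.70, 4.86, 5.61 and 3.22 on control arrays and at 6.68, 5.72, 6.15 and 6.52 on LPS_IFNg arrays, and Col1a2 rose 3.76-fold. Krt19 lay at -0.26, -0.37, 0.14 and -1.71 on control arrays and at -1.30, -3.80, -3.30 and -2.95 on LPS_IFNg arrays, Lum was at least 8.02-fold lower and Col3a1 3.71-fold lower. The mean level of the list ran from -0.51 to 1.21 on control arrays and from -0.90 to 0.50 on LPS_IFNg arrays. The part of these cells in the rises of Timp1 and other secreted genes was not tested.

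The other marker lists were small after the filter on dim probes, and 33.4% of all genes rose and 35.7% fell. Of 11 tested macrophage markers 3 rose and 6 fell, and of 9 neutrophil markers 3 rose and 5 fell. Of 5 tested B cell markers 2 fell, of 5 T and NK cell markers 2 rose and 2 fell, and of 3 eosinophil markers all fell. Of 8 dendritic cell markers 4 rose and 2 fell, of 4 mast cell markers 1 rose, and of 4 endothelial markers 1 rose and 2 fell. Mean levels of the B cell list ran from -1.73 to -0.88 on control arrays and from -2.28 to -1.12 on LPS_IFNg arrays, and those of the neutrophil list from -0.37 to -0.07 and from -0.86 to -0.72.

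Cell cycle genes moved in both directions. Of 35 tested members 9 rose and 16 fell, against 33.4% and 35.7% of all genes. The G1 cyclins Ccnd2 (20.2-fold) and Ccne1 (3.70 higher on the log2 scale) rose, and so did Cdkn1a (p21), an inhibitor of cyclin-dependent kinases, by 5.62-fold. The replication helicase gene Mcm2 lay at 0.00, -0.03, 0.15 and 0.26 on control arrays and at -0.85, -0.66, -1.35 and -0.90 on LPS_IFNg arrays (2.05-fold lower), and all 6 tested Mcm genes fell. Ccna2 (cyclin A) fell 4.21-fold, above background on 2 LPS_IFNg arrays. Myc fell 3.91-fold while Mxd1, which competes with it for the partner Max, rose 9.35-fold. Of 24 tested genes of ribosome biogenesis and the Myc network, Myc and Mxd1 included, 4 rose and 6 fell, and the median change was -0.08.

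Chromatin enzymes rose in 20 of 32 tested members and fell in 5. Kdm6b (JMJD3), which removes methyl groups from histone H3, lay at -1.45, -1.71, -1.35 and -0.93 on control arrays and at 1.78, 2.21, 2.51 and 1.93 on LPS_IFNg arrays (11.1-fold), while its relative Kdm6a fell. Ehmt1 changed by 2.58 on its brightest probe and by -0.25 on another. Hdac5 and the DNA methyltransferase Dnmt1 fell 2.63-fold and 2.08-fold.

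The remaining lists lay nearer to the background. Of 22 genes of the unfolded protein response 9 rose and 6 fell (8 and 8 under quantile scaling), with Asns at 1.44 ± 0.14 and Atf6 at -1.06 ± 0.10. Of 15 tested clock genes 4 rose and 5 fell, and the opposed factors Dbp and Nfil3, which bind the same DNA element, moved apart. Dbp lay at 2.89, 2.89, 3.03 and 2.54 on control arrays and at -0.60, -1.12, -1.02 and -0.74 on LPS_IFNg arrays (13.1-fold lower), and Nfil3 rose 5.88-fold. Of 30 tested lysosome and endosome genes 11 rose and 10 fell, but 7 rose and 14 fell under quantile scaling, where the median turned from 0.10 to -0.10. The lipase gene Lipa and the factor Tfeb, an activator of lysosome genes, fell 3.51-fold and 3.11-fold, and Ctsc rose 3.54-fold.

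**Figure D5:**
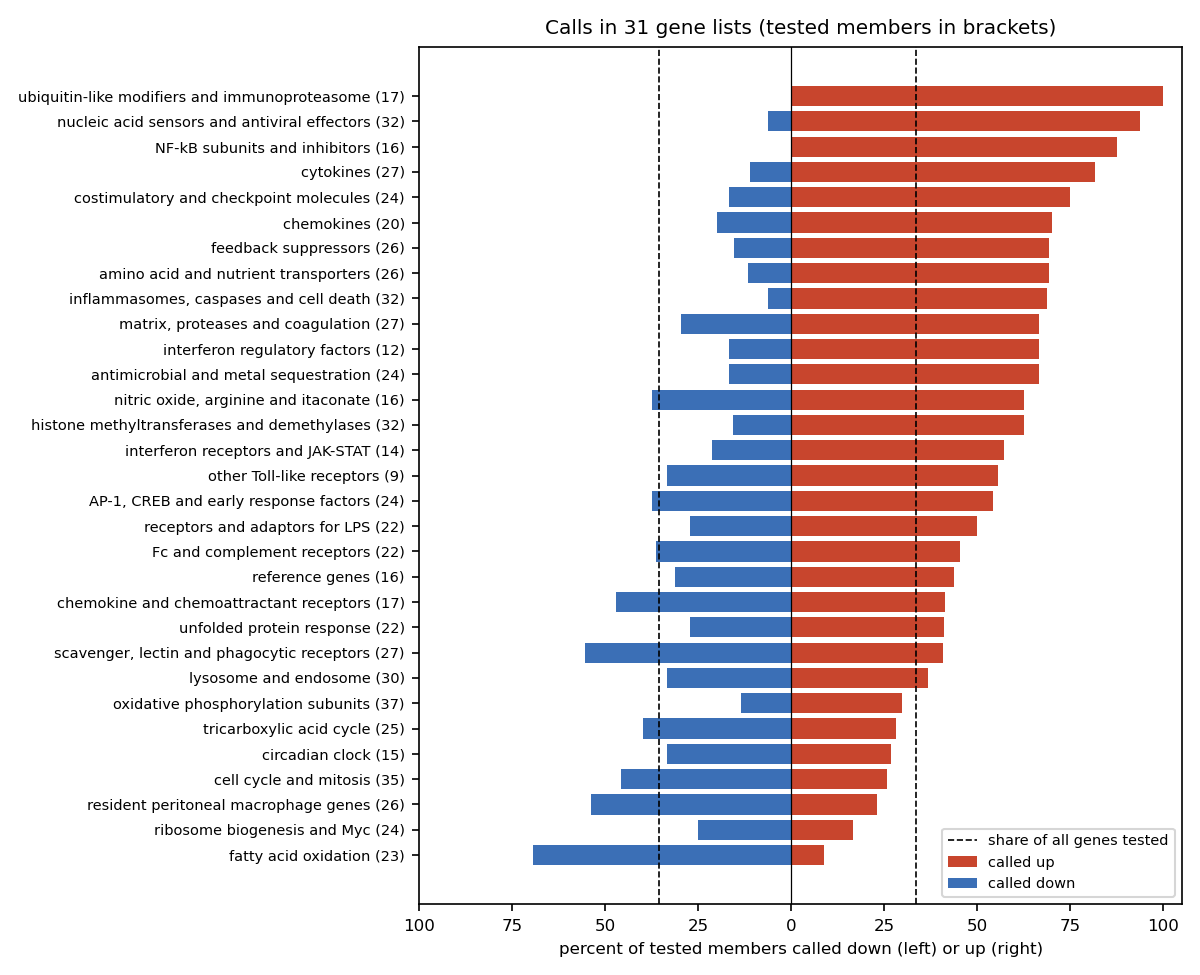
Bars give the percent of tested members called up (red, to the right) and called down (blue, to the left) in 31 gene lists by function, with the number of tested members in brackets; dashed lines mark the shares over all genes tested, 33.4% up and 35.7% down. Ubiquitin-like modifiers, nucleic acid sensors and NF-kB genes extend furthest to the right, and fatty acid oxidation extends furthest to the left.

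Genes often used as references were not level. Of 16 tested, 7 rose and 5 fell, against 33.4% and 35.7% of all genes, or 6 and 6 under quantile scaling. Pgk1, a glycolytic enzyme, rose 5.71-fold and Gapdh 1.52-fold on its brightest probe, with 1.29 to 1.79 log2 units on the others. Actb lay between 9.61 and 9.81 on control arrays and between 9.84 and 10.08 on LPS_IFNg arrays, a change of 0.24 ± 0.08 that was not called under quantile scaling (0.03). Tbp and Rplp0 were not called, at 0.13 ± 0.07 and 0.09 ± 0.09.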

How the data were processed

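RNA of 4 control and 4 LPS_IFNg samples was measured on 1-colour Agilent arrays. Intensity per spot was taken from the deposited scanner output of Agilent Feature Extraction, version 10.7.3.1 by the submitters' processing notes. Its processed signal is background-subtracted and, per the file headers, was not normalised between arrays. The deposited value table holds log2 values centred per probe. It gave 3804 rises and 5432 falls, close to the 3811 and 5440 under quantile scaling. In it, the values given for control 1, 3 and 4 were those scanned as control 4, 1 and 3, so group means did not change. Column medians lay between -0.0314 and 0.0133, and the table served as an alternative only.

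Between 105 and 415 outlier spots per array were dropped, replicate spots averaged, and the array's 75th percentile subtracted from the log2 signal. Of 55681 probes 26668 were kept, being well above background on all 4 arrays of a group. RefSeq accessions (GRCm38.p6) named 27503 probes, none with several symbols, and left 28178 unnamed. The array design is annotated on mm9, so RefSeq served for names and promoter windows only. The probe with the highest mean stood for each of 12995 genes. Several probes were kept for 3297 genes, and for 768 of these the changes differed in sign between probes.

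Group means were compared with limma 3.58.1 in R 4.3.3 (lmFit, eBayes, 6 residual and 2.51 prior degrees of freedom, no block), two-sided, with Benjamini-Hochberg adjustment at 0.05. The code was tested on simulated data of 4 against 4 arrays (12995 genes, 200 changed, 10 draws). There 45.8% of changes of 0.5, 90.9% of 1 and 97.9% of 2 log2 units were called. In the data 69.2% of genes were called, which makes the adjustment less strict, so these rates are not those of the data. The number of arrays limits the precision. Spike-ins were not used for scaling, and no gene list was given a set test. Named genes were the 15 largest rises and falls without overlap, the 10 largest bounds each way, and members of 31 lists by function and 10 by cell type, which hold 838 different genes, 749 of them tested. Some members that the counts include are not reported here by name. The members and lists were chosen with earlier results of these data known. Alternatives covered background correction (on median signals; mean signals were not used here), scaling, the filter, the probe rule, the value table, a replicate block, the arrays labelled female, moderation with a trend, and each array left out.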

Additional observations from a re-analysis of the deposited data

Results flagged for a closer look

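Probes of Xist, Ddx3y and Eif2s3y set LPS_IFNg array 3 apart, while those of the Y-linked Kdm5d and Uty were at background on every array. Xist had a gap to the nearest array that was 0.974 of the range of its group. Ddx3y and Eif2s3y, which were not tested because they were dim elsewhere, lay at 0.24 and 1.01 on that array.

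Among unnamed probes, 167 of 9748 kept were well above background on all 4 LPS_IFNg arrays and on no control array, and 686 showed the reverse.

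For genes named in the report, 28 of 460 groups of 4 arrays (6.09%) held an array whose gap to the nearest other, as a share of the group's range, passed the 95% critical value of Dixon's test. Chance alone gives this in about 1 in 20 groups. On control arrays these were Ccl12 (0.847), Fcgr4 (0.832), Gsdme (0.841), Lbp (0.865), Lhx2 (0.919), Mxd1 (0.834), Psmb9 (0.908), Socs1 (0.887), Thbd (0.876), Tyro3 (0.832) and Unc93b1 (0.848). On LPS_IFNg arrays they were Axl (0.908), Cd14 (0.921), Cd28 (0.839), Cd69 (0.889), Clec4e (0.863), Cs (0.899), Fpr1 (0.868), Hcar2 (0.873), Il18bp (0.895), Kdm6a (0.853), Lhx2 (0.856), Nr4a1 (0.947), Ogdh (0.859), S100a4 (0.896) and S100a9 (0.907). Nlrp1b had 0.925: LPS_IFNg array 4 lay at -0.74 and the nearest other at -5.44, and the gene was called without array 4. The call of Unc93b1 was lost without control array 4, the array set apart, and also without each of the other control arrays in turn.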

How the results depend on the processing

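The counts of genes called stayed within 1.5 times of those given, with 1 exception: with no filter on dim probes, 20883 genes were tested, 7858 were called up, against 4343, and 4789 down, against 4645. Rises were then 62.1% of calls and the median gene lay at 0.22, and the cause was not tested. Quantile scaling moved the median gene to -0.14, scaling on probes detected on all 8 arrays to -0.16, and the deposited value table to -0.14, and the share of calls that were rises was 41.2%, 40.5% and 41.2% there, against 48.3%. Leaving out 1 array gave 4090 to 4330 rises and 4327 to 4741 falls, 1794 to 1851 rises and 1532 to 1635 falls of at least 2-fold, 185 to 201 genes above background on LPS_IFNg arrays only and 361 to 433 on control arrays only. The spike-in difference lay between 2.00 and 2.11. Same-numbered samples correlated at -0.144 to 0.141 in their deviations, and samples of other numbers at -0.345 to 0.33. With 4 arrays per group these values cannot decide whether replicate numbers pair the arrays. The replicate block gave 4127 rises and 4451 falls. Of 216 named genes called, 9 lost the call in at least 1 setting (Acadvl, Actb, Arg1, Cpt1a, Ifngr2, Pdgfb, Pf4, S100a8 and Unc93b1), and Ogdh turned to -0.14 with the mean of its probes. In at least 1 setting each, calls were gained for Cd14 (0.30 to 0.41), Nlrp1b (-3.44), Rplp0 (0.34), Sucla2 (0.21 to 0.37) and Tgfb1 (0.23 to 0.30). Arrays measure signal over background, so levels near background are bounds.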
